A study of Homo sapiens with 4 samples.

Results

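The genes described here encode the proteins of the cytosolic ribosome, 46 of the large and 31 of the small subunit. H4K20me1 was profiled by CUT&Tag in the acute myeloid leukemia line Kasumi-1. In this assay an antibody tethers the Tn5 transposase to chromatin that carries a chosen mark. Peaks were taken as ribosomal protein peaks when the authors' annotation gave them a ribosomal protein symbol and did not place them in distal intergenic DNA, leaving out RPS6K genes, RPL22L1-like paralogs, pseudogenes and antisense genes. This gave 54 of 25514 peaks and 45 of the 9020 genes named for peaks outside distal intergenic DNA. Of these genes, 38 had 1 peak, 6 had 2 and RPL38 had 4. The peaks of RPL17, RPL36A and RPS10 include 3 that carry the symbol of a read-through transcript with the next gene and were kept under the ribosomal protein's name.

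The series has 2 libraries labelled as SETD8 knockout, made by CRISPR/Cas9 with a guide against SETD8, and 2 libraries labelled wild type, from cells with a non-targeting guide. Each library was built from 100000 cells. The labels do not say whether the knockout cells were a clone or a pool, nor whether a group's libraries were grown apart. SETD8, also called KMT5A, is the enzyme that places the single methyl group on lysine 20 of histone H4. These data measure the mark and not SETD8 itself, so the knockout could not be checked from the target. The deposited table holds 1 value per group and peak, and its header does not name the groups. They are called first-listed and second-listed here. The title of the table sets treated before control, an order in which the knockout would be first-listed. With 1 value per group there is no spread between libraries and no test could be made here. Intervals cover counting error only, and each p-value was copied from the authors' deposited table. Peaks were present at 6 of 8 genes that mark Kasumi-1 cells (not at MPO or CD33) and at 2 of 6 genes that mark other cell types (ALB and PAX5).

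Ribosomal proteins assemble with ribosomal RNA in the nucleolus and are made in near-equal numbers, so their genes are among the most steadily transcribed in dividing cells. Many of their messages start with a cytosine and a run of pyrimidines, the terminal oligopyrimidine (TOP) tract, through which LARP1 and mTOR signalling control their translation. H4K20me1 is found over the bodies of transcribed genes as well as in silent chromatin such as the inactive X chromosome. Loss of 1 copy of RPS14 is a feature of a form of myelodysplastic syndrome, and RPS19, RPL5 and RPL11 are mutated in Diamond-Blackfan anemia, which makes these genes of interest in blood cells.

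Start regions of ribosomal protein genes shared sequence features that played no part in choosing the peaks. RefSeq promoters of GRCh38.p14 were at hand for 62 of 77 ribosomal protein genes, with 77 starts, and for 39 of the 45 genes with a ribosomal protein peak. The genes without an entry included RPL23, RPL23A, RPL30, RPL37, RPL5, RPL7, RPL8, RPS15A, RPS2 and RPS20. The stretches below run from 60 bases before to 20 bases after a RefSeq start. They are shown for the genes with the highest and lowest ratios between the columns (RPL36A, RPL11, RPS23, RPL10 and RPL27), for RPS19 and RPS14, for RPL31, whose stretch holds both features, and for RPS15, the ribosomal protein gene with the most reads under a single peak named for it. Capitals mark the TOP tract at the start and the letters CCGGAAG or their reverse complement CTTCCGG, the core bound by ETS factors such as GABP. RPL27 and RPS15 have neither in this stretch.
RPL36A, chrX:101390951-101391030, strand plus: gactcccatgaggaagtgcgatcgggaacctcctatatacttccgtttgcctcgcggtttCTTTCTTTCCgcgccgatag
RPL11, chr1:23691746-23691825, strand plus: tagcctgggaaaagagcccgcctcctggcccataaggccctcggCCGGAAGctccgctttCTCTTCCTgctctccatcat
RPS19, chr19:41860195-41860274, strand plus: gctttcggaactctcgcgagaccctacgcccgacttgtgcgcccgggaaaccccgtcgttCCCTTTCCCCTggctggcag
RPS14, chr5:150449720-150449799, strand minus: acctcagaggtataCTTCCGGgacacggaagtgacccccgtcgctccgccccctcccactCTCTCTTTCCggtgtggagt
RPL31, chr2:101002229-101002308, strand plus: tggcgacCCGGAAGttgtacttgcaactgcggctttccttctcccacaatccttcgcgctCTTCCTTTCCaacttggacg
RPS23, chr5:82278335-82278414, strand minus: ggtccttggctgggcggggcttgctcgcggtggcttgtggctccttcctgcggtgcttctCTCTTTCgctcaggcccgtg
RPL10, chrX:154398317-154398396, strand plus: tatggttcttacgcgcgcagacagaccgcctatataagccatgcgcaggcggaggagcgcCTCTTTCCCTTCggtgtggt
RPL27, chr17:42998359-42998438, strand plus: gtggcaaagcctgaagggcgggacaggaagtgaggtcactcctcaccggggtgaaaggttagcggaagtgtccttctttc
RPS15, chr19:1438336-1438415, strand plus: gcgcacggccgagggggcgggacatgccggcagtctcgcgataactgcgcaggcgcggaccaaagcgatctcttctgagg

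A TOP tract, searched as C at the start followed by at least 4 pyrimidines, was present at 46 of 77 ribosomal protein starts (59.7%), against 4.07% of all 35116 RefSeq starts and 4.54% of protein-coding starts. These tracts were 5 to 19 bases long, with a median of 8. With the start allowed to move by up to 2 bases the shares were 66.2% and 10.5% of all starts. Tracts were found in 27 of 39 genes with a ribosomal protein peak and in 11 of 11 genes with no peak of any name over them. CCGGAAG, on either strand of the window from 250 bases before to 50 bases after the start, was present at 26 ribosomal protein starts (33.8%), against 10.3% of all starts. The shorter core CGGAAG, which CCGGAAG contains, stood at 59.7% of ribosomal protein starts and 19.5% of all starts. The letters AAGATGG, a core of YY1 sites, were present at 10.4% against 5.84%. The GC box GGGCGG (54.5% against 45.0%) and CCAAT (33.8% against 34.6%) were about as frequent at ribosomal protein starts as elsewhere. TATAAA was present at 6.49% against 11.5%. Among protein-coding starts alone, CCGGAAG was present at 12.8%, CGGAAG at 23.7% and AAGATGG at 6.04%. There the GC box stood at 56.3%, CCAAT at 34.7% and TATAAA at 9.47%. A match describes these letters and is not a site in use.

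H4K20me1 peaks lay over ribosomal protein starts more often than over gene starts in general. The outermost RefSeq start was inside a peak in 35 of 62 ribosomal protein genes (56.5%, exact 95% interval 43.3 to 69.0), against 2827 of 15843 protein-coding genes (17.8%, 17.2 to 18.4). Translation factors stood between these at 23 of 59 genes (39.0%, 26.5 to 52.6), and so did the proteins of the mitochondrial ribosome at 21 of 69 genes (30.4%, 19.9 to 42.7). The interval of the ribosomal protein genes thus lay above those of all genes and of mitochondrial ribosomal proteins, and overlapped that of translation factors. This share comes from the list of peaks of the whole series and says nothing about either group of cells.

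**Figure D1:**
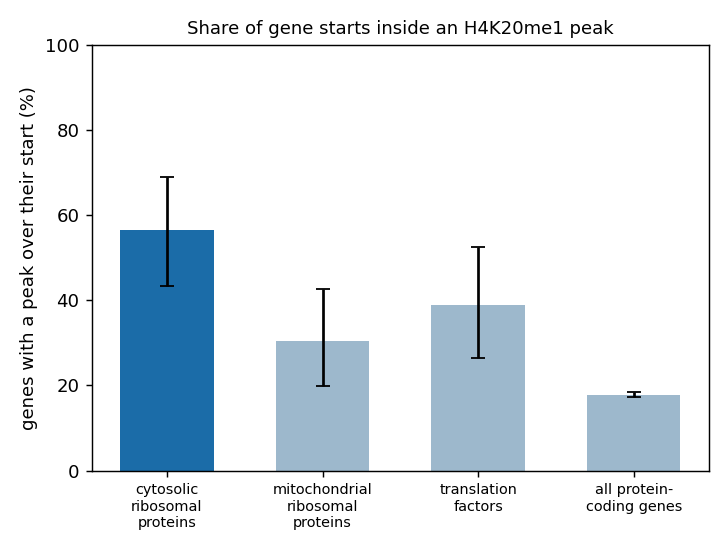
Share of genes whose outermost RefSeq start lies inside an H4K20me1 peak (percent), for cytosolic ribosomal proteins, mitochondrial ribosomal proteins, translation factors and all protein-coding genes. Bars are shares and lines are exact 95% intervals; the ribosomal protein bar stands at 56.5% and that of all protein-coding genes at 17.8%.

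Over these starts the mark extended into the gene. The 35 peaks reached a median of 154 bp upstream of the start and 1426 bp downstream, and 33 of them (94.3%) reached further downstream than upstream. Peaks over the starts of all protein-coding genes reached a median of 303 bp upstream and 997 bp downstream, and 76.2% of them reached further downstream. Among ribosomal protein genes RPS19 and RPS25 were the exceptions. The RPS25 peak reached 811 bp upstream and 183 bp into the gene. Ribosomal protein genes are short, with a median RefSeq length of 5011 bp, and at 4 of them peaks covered more than 90% of the gene, among them RPS15, RPL8 and RPS28.

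**Figure D2:**
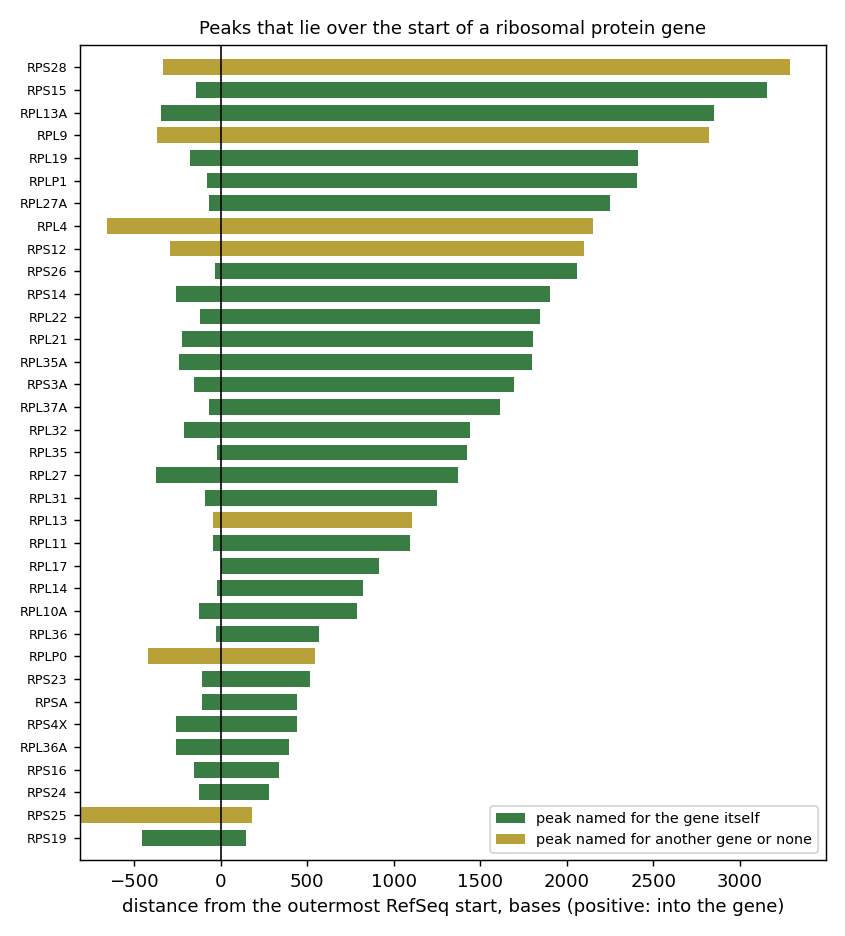
Extent of each peak that lies over the outermost RefSeq start of a ribosomal protein gene, in bases from the start (positive values run into the gene), 1 bar per gene. Green bars are peaks named for the gene and yellow bars are peaks that the annotation names for another gene or leaves without a symbol; 33 of 35 bars reach further right than left.

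By the authors' annotation, 44 of the 54 ribosomal protein peaks (81.5%) were promoter peaks within 1 kb, against 26.5% of all peaks. Intron peaks numbered 6 (11.1%), against 36.3% of all peaks. Another 4 were promoter peaks at 1 to 3 kb. The shares of all peaks include distal intergenic peaks (22.8%), which the rule left out of the ribosomal protein peaks. Part of the difference in promoter share was therefore set by the rule. Of the 6 intron peaks, 5 lay in other genes and carried the name of a ribosomal protein gene at a distance. They were 3 peaks 50532, 113357 and 150005 bp upstream of RPL38, a peak 61413 bp upstream of RPL32, and the peak named for RPS29, 515552 bp from its start. The other 49 peaks, of 44 genes, lay over or within 3 kb of the gene, except an intron peak of the RPS10-NUDT3 read-through transcript that lay past the end of RPS10 itself. By subunit, 29 of 46 large-subunit genes (63.0%, exact 95% interval 47.5 to 76.8) and 16 of 31 small-subunit genes (51.6%, 33.1 to 69.8) had a peak, and these intervals overlap.

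Ribosomal protein peaks were deeper than the typical peak. Their median was 136 first-listed and 131.5 second-listed reads, against 72 and 72 over all peaks and 105 and 103 over all promoter peaks within 1 kb. Leaving out 2 peaks that held 1 read in each column, the first-listed values ran between 28 and 609 reads and the second-listed values between 22 and 511. Per kb of peak, the median ribosomal protein peak had 92.7 first-listed and 79.9 second-listed reads. Over all peaks these values were 71.2 and 71.7, and over all promoter peaks within 1 kb they were 83.6 and 82.2. The second-listed value thus lay below that of all promoter peaks within 1 kb. Of the 54 peaks, 43 (79.6%) lay at or above the median signal of the table. The densest peak in the first-listed column was at RPL36, a large-subunit protein, with 257 first-listed and 250.4 second-listed reads per kb. RPL7 followed with 224 and 139 reads per kb, RPSA with 213 and 251, and RPL37 with 211 and 191. Apart from those peaks, RPS23 had the fewest first-listed reads per kb among peaks at the gene, 44.9, against 76.9 second-listed reads per kb.

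Between the columns most ribosomal protein peaks differed little. The log2 fold change, first-listed minus second-listed, had a median of 0.12 (0.115 before rounding), with quartiles of −0.05 and 0.34 and a range of −0.72 to 1.33. Over all peaks the median was 0.06 (quartiles −0.19 and 0.32), over all promoter peaks within 1 kb it was 0.08, and over those of them at or above the median signal it was 0.11. A fold change within 0.2 in size was found for 31 of the 54 peaks. A log2 fold change above 0 was found for 39 ribosomal protein peaks (72.2%) and 15 were below 0; of all peaks 58.2% were above 0. When each column was scaled to the same total, a shift of −0.11 on the log2 scale, 27 ribosomal protein peaks lay above 0 and 27 below, and 44.7% of all peaks lay above. The excess of peaks above 0 thus depended on the scaling. Summed over the 54 peaks, there were 8157 first-listed and 7472 second-listed reads. With the table's scaling that is a log2 ratio of 0.18 (counting interval 0.14 to 0.23), against 0.11 for all peaks, and with the same total in each column it was 0.07. In bulk chromatin, fewer cells with the mark and less mark per cell cannot be told apart.

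**Figure D3:**
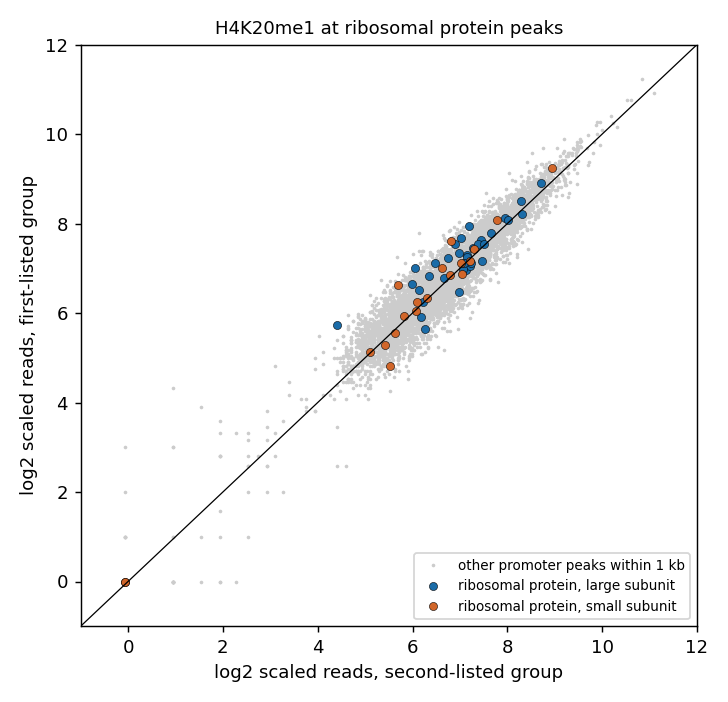
Log2 scaled reads of each promoter peak within 1 kb (grey) and of the 54 ribosomal protein peaks (blue, large subunit; orange, small subunit), first-listed group on the y axis and second-listed group on the x axis, with the line of equal values. The ribosomal protein peaks lie inside the cloud, from −0.72 to 1.33 log2 units off the line, apart from 2 peaks at the lowest step, drawn at the bottom left.

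The authors' deposited table gave 5 of the ribosomal protein peaks (9.26%) an unadjusted p under 0.05 with a higher first-listed value, against 3.37% of all peaks. No ribosomal protein peak had such a p with a lower first-listed value, against 1.69% of all peaks. After adjustment, no peak of any gene passed 0.05 in the authors' deposited table (0.0% of peaks). A log2 fold change of 1 or more was found for 1 ribosomal protein peak, against 1.55% of all peaks, and of −1 or less for 0 of them, against 0.909%. The counting interval lay above 0 in 17 ribosomal protein peaks (31.5%), against 17.1% of all peaks, below 0 in 3 (5.56%), against 8.11%, and held 0 in 34. Intervals narrow with depth, and ribosomal protein peaks were deeper than most. Among all promoter peaks within 1 kb at or above the median signal, the counting interval lay above 0 in 25.4% and below 0 in 10.1%. Among low read numbers (2 to 7), 75.5% of first-listed and 86.9% of second-listed values were even, so both ends of a fragment may have been counted. Intervals from reads divided by 2 lay above 0 in 9 ribosomal protein peaks (16.7%), against 9.15% of all peaks, and below 0 in 0 of them, against 3.17%. Of the 4666 promoter peaks within 1 kb at or above the median signal, such intervals lay above 0 in 679 and below 0 in 241.

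By subunit, the genes of the large subunit had a median log2 fold change of 0.17, with 23 genes above 0 and 6 below. Those of the small subunit had a median of 0.08, with 10 above and 6 below. Over both, 33 genes lay above 0 and 12 below, with a median of 0.14. The difference between the subunits has no replicate check.

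RPL36A, a large-subunit protein that lies near the exit site for transfer RNA, had the highest ratio. Its single peak, chrX:101390755-101391406 over the start of the gene, held 53 first-listed and 22 second-listed reads, a log2 ratio of 1.33 (0.58 to 2.11). The authors' deposited table gives it p = 0.00227 and adjusted p = 0.649. It was among the shallower ribosomal protein peaks and lay below the table's median signal, and at or above that signal no ribosomal protein peak reached a log2 fold change of 1.

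RPL5 and RPL11, which together bind MDM2 and so link ribosome assembly to p53, both had more first-listed reads. RPL11 had 128 first-listed and 69 second-listed reads in a peak over its start (chr1:23691736-23692870), a log2 ratio of 0.95 (0.52 to 1.39). In the authors' deposited table its p was 0.0206 and its adjusted p 0.924. RPL5 had 326 first-listed and 281 second-listed reads over a pair of peaks, a log2 ratio of 0.27 (0.04 to 0.51). The difference in RPL5 lay in the downstream peak, with 186 first-listed against 124 second-listed reads, whereas the peak over its first bases held 140 first-listed against 157 second-listed reads. In the authors' deposited table p was 0.0949 for the downstream RPL5 peak and 0.778 for the other. The RPL5 interval over both peaks would be wider with reads divided by 2. It was not computed that way, so it cannot be taken to stay above 0.

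Among the other large-subunit genes, RPL7 had 246 first-listed and 152 second-listed reads, a log2 ratio of 0.75 (0.45 to 1.05), with p = 0.0438 and adjusted p = 0.966 in the authors' deposited table. RPL17, a protein at the mouth of the exit tunnel for the growing peptide, had 100 first-listed and 66 second-listed reads (log2 ratio 0.66, 0.19 to 1.13). RPL6 had 139 first-listed and 93 second-listed reads (0.64, 0.25 to 1.03). The acidic stalk proteins recruit translation factors. RPLP2 had 204 first-listed and 135 second-listed reads (0.65, 0.33 to 0.98), and RPLP1 had 298 and 332 (−0.10, −0.33 to 0.13). With reads divided by 2 these intervals, 0.19 to 1.12 for RPLP2 and −0.43 to 0.23 for RPLP1, overlap, and the difference was not tested. RPLP0, the stalk base, had no peak in its name.

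At the low end of the large subunit stood RPL10, a late-joining protein near the peptidyl transferase centre, and RPL27. RPL10 had 50 first-listed and 80 second-listed reads (log2 ratio −0.62, −1.16 to −0.09). RPL27 had 88 first-listed and 131 second-listed reads (−0.52, −0.92 to −0.12). RPL22, a target of deletions in T-cell leukemia, had 125 and 146 reads (−0.17), and its interval of −0.52 to 0.19 holds 0. In the authors' deposited table p was 0.138 for RPL10 and 0.198 for RPL27. With reads divided by 2 the RPL10 interval reached from −1.40 to 0.14.

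The deepest large-subunit genes lay close to equal. RPL38, a protein known in mouse for its part in the translation of Hox messages, had 530 first-listed and 590 second-listed reads over 4 peaks (log2 ratio −0.10, −0.27 to 0.07), of which only the peak 2529 bp upstream of its start, with 140 first-listed and 141 second-listed reads, lay near the gene. RPL37 had 478 and 433 reads (0.20, 0.01 to 0.39), and RPL13A, which silences inflammatory messages outside the ribosome, had 365 and 326 (0.22, 0.00057 to 0.44). RPL32 had 133 first-listed and 155 second-listed reads in its promoter peak (−0.16, −0.51 to 0.18), against 113 and 85 in the distant intron peak that carries its name (0.47, 0.05 to 0.89).

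In the small subunit RPS19, needed to process the small-subunit RNA precursor, had 160 first-listed and 113 second-listed reads over a pair of peaks (log2 ratio 0.56, 0.20 to 0.92). Its start peak held 61 first-listed and 59 second-listed reads, and the peak 2868 bp into the gene held 99 and 54 (0.93, 0.44 to 1.44). The RPS19 downstream peak had p = 0.026 and adjusted p = 0.942 in the authors' deposited table. RPS14, which is also needed to mature the small-subunit RNA, had 272 first-listed and 229 second-listed reads (0.31, 0.05 to 0.57).

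RPS15, a protein with recurrent mutations in chronic lymphocytic leukemia, had the most reads under a single ribosomal protein peak, 609 first-listed and 511 second-listed reads in 3304 bp (log2 ratio 0.31, 0.14 to 0.48). RPS23, a protein of the decoding centre, had the lowest ratio of the 45 genes, with 28 first-listed and 48 second-listed reads (−0.72, −1.45 to −0.02; p = 0.0881 in the authors' deposited table). RPSA, which is mutated in isolated congenital asplenia, had 117 and 138 reads (−0.18, −0.55 to 0.18), and RPS4X had 39 and 45 (−0.15, −0.81 to 0.50). The intron peak named for RPS29 held 47 first-listed and 52 second-listed reads (−0.09, −0.69 to 0.51). The other genes reported here had log2 ratios between −0.08 (RPL19, 126 first-listed and 139 second-listed reads) and 0.49 (RPL10A, 151 and 112 reads). Among them the intervals of RPL10A (0.13 to 0.85) and RPL21 (0.01 to 0.70) lay above 0. With reads divided by 2 both held 0 (−0.03 to 1.01 for RPL10A and −0.13 to 0.84 for RPL21). So did the intervals from divided reads of RPL17, RPL37, RPL13A, RPL27, RPS14, RPS23 and the distant peak named for RPL32.

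**Figure D4:**
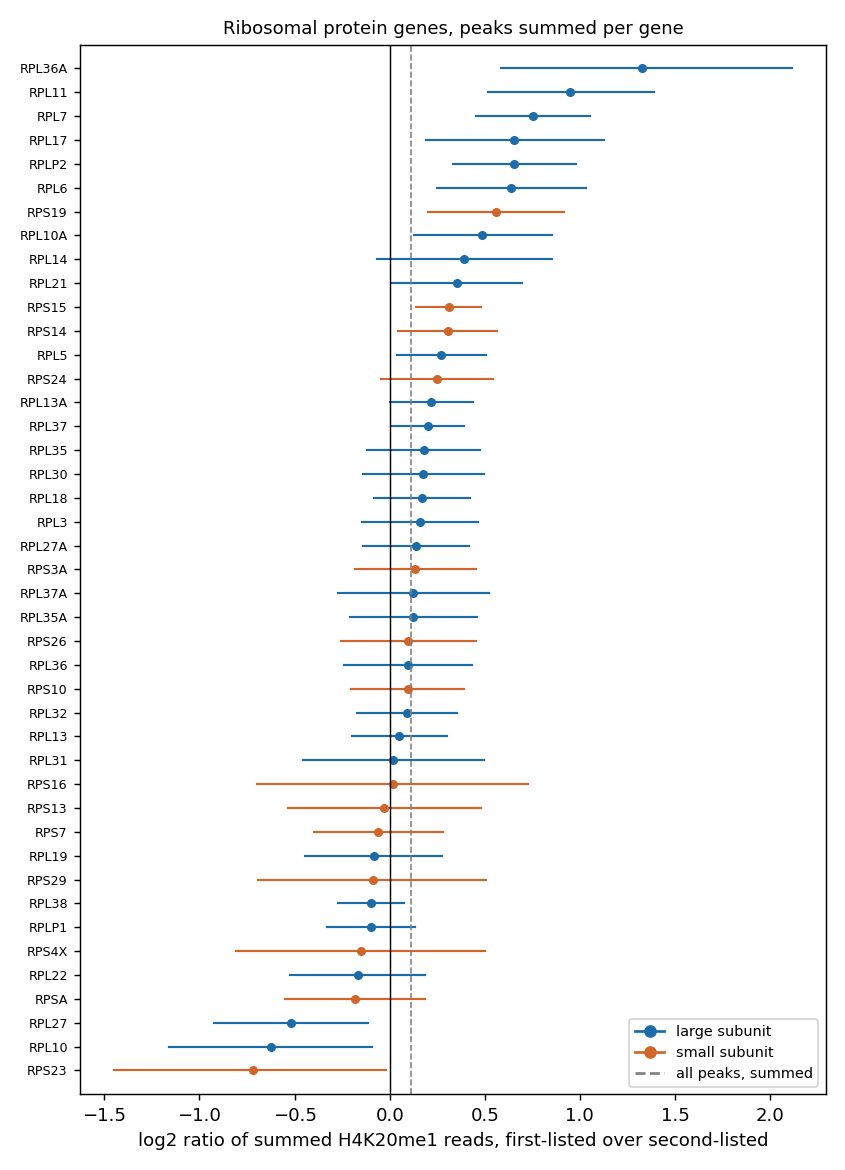
Log2 ratio of summed H4K20me1 reads, first-listed over second-listed, for 43 ribosomal protein genes, with the exact 95% counting interval as a line. Blue is the large and orange the small subunit, and the dashed line is the ratio over all peaks, 0.11; RPL36A stands highest at 1.33 and RPS23 lowest at −0.72, and 30 of 43 intervals hold the dashed line.

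Several ribosomal protein genes carried a peak under another gene's name. Ribosomal protein introns host many small nucleolar RNAs, which guide the modification of ribosomal RNA, and 29 of the 77 genes host at least 1 in RefSeq. With every peak that overlaps the RefSeq gene counted, whatever its symbol, 73 peaks lay over 64 of the 77 genes. This way of counting was added after the data had been seen. Of these peaks 26 carried another name, and 21 of them lay over 19 genes that had no peak in their own name: 8 named for a small nucleolar RNA, 3 for a microRNA, 9 for another gene and 1 without a symbol. Of the 29 hosts, 16 (55.2%) had a peak in their own name and 27 had a peak of any name. The 13 genes without any peak over them were RPL7A, RPL23A, RPL24, RPL26, RPL29, RPL34, RPL41, RPS6, RPS9, RPS15A, RPS18, RPS21 and RPS27.

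Peaks under other names included some with many reads. RPS3, a protein at the entry of the messenger RNA channel, lay under a peak named SNORD15A with 481 first-listed and 412 second-listed reads (log2 fold change 0.28, 0.09 to 0.47). RPL8 lay whole under a peak named MIR6850 with 410 and 337 reads (0.34, 0.13 to 0.55), and RPS28 whole under a peak named NDUFA7 with 313 and 238 (0.46, 0.20 to 0.70). RPL15 lay under a peak named for its neighbour NKIRAS1 with 333 and 272 reads (0.35, 0.11 to 0.59). The gene of RPS29 itself held a peak named RN7SL1 with 391 and 328 reads (0.32, 0.10 to 0.53), whereas the peak in its own name lay far away.

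RPL12, a stalk-base protein, differed the other way. Its peak, named SNORA65, held 175 first-listed and 272 second-listed reads (log2 fold change −0.58, −0.86 to −0.30) and covered 80.3% of the gene. RPS12, under SNORD101, had 187 and 242 reads (−0.30, −0.60 to −0.03). RPLP0, the base of the stalk, had 89 and 119 reads in a peak named PXN-AS1 (−0.36, −0.77 to 0.05). RPS20, under SNORD54, had 90 and 61 (0.62, 0.13 to 1.11). In the authors' deposited table p was 0.115 for the RPL12 peak, 0.412 for that of RPS12 and 0.137 for that of RPS20. Intervals from reads divided by 2 would be wider. They are not given for RPL12, RPS12, RPLP0 and RPS20, or for the peaks under other names above. The authors' deposited table gave 0 of the 26 peaks under another name an unadjusted p under 0.05, against 3.37% of all peaks with a higher and 1.69% with a lower first-listed value. Over all 73 peaks the log2 ratio of summed reads was 0.18 (0.14 to 0.21) and the median log2 fold change 0.12, with 53 peaks above 0 and 20 below. These 73 peaks are the 26 renamed ones and 47 of the 54 in the gene's own name; the other 7 did not lie over the gene.

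Among 8 ribosomal protein genes with 2 peaks over the gene, the downstream peak had the higher log2 fold change in 7. The pattern was noticed in the data and is a description. The upstream peak of RPL10 held 50 first-listed and 80 second-listed reads, and its downstream peak, named SNORA70, held 64 and 47 (log2 fold changes −0.62 and 0.50). For RPS19 the fold changes were 0.11 upstream and 0.93 downstream, for RPL5 −0.11 and 0.64, and for RPS24 0.04 and 0.40. RPL4, RPL22 and RPL28 had smaller gaps in the same direction, and RPL13 was the exception with 0.09 upstream and 0.05 downstream. The downstream peaks of RPL4, RPL22 and RPL28 were named for other genes, SNAPC5, CHD5 and UBE2S. Whether those peaks belong to the ribosomal protein gene or to the gene they are named for was not tested. The downstream peak did not always lie near the end of the gene: its middle stood at 24.1% of the gene's length in RPL5, 24.7% in RPS19 and 34.4% in RPS24, and at 94.7% in RPL4. The median gap was 0.34. Among 1603 protein-coding genes with exactly 2 peaks the downstream peak was the higher in 51.8%, with a median gap of 0.02. The counting intervals of the upstream and downstream peak were apart in RPL5 and RPL10 and overlapped in the other genes, and with reads divided by 2 they overlapped in all 8.

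**Figure D5:**
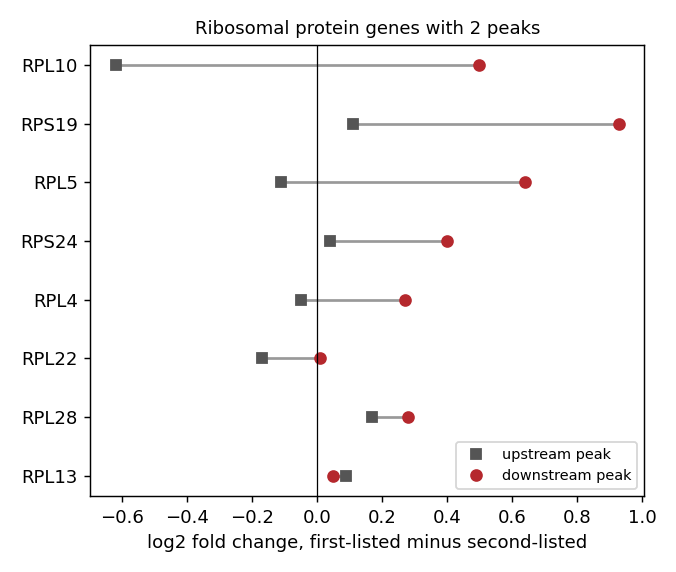
Log2 fold change, first-listed minus second-listed, at the upstream peak (grey square) and the downstream peak (red circle) of 8 ribosomal protein genes with 2 peaks over the gene. The red circle lies to the right in 7 genes, with the widest gap, 1.12, in RPL10. The downstream peaks of RPL4, RPL10, RPL22 and RPL28 carry another gene's name.

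Genes that work with the ribosomal proteins gave mixed values. FAU, which encodes a ribosomal protein fused to a ubiquitin-like protein, had a peak with 86 first-listed and 75 second-listed reads and a log2 fold change of 0.25. Of 8 paralogs outside the main set 4 had a peak, with RPL36AL at 0.24 and RPS27L at −0.75 (39 first-listed and 68 second-listed reads). Of 75 ribosome biogenesis factors 37 had a peak, with a median of 0.05 (0.045 before rounding), 21 above 0 and 16 below. SBDS, which frees the large subunit for joining and is mutated in Shwachman-Diamond syndrome, had 105 first-listed and 48 second-listed reads (1.19; p = 0.00499 in the authors' deposited table). MDN1 stood at 0.77, NOL6 at −0.61 and IMP3 at −0.55. For biogenesis factors the authors' deposited table had 3 of 53 peaks (5.66%) past the unadjusted threshold of 0.05 with a higher first-listed value, against 3.37% of all peaks, and 1 (1.89%) with a lower one, against 1.69%.

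Of 15 RNA polymerase I genes 6 had a peak, with a median of 0.01 and POLR1B, a catalytic subunit, lowest at −0.70 (74 first-listed and 125 second-listed reads). Of 11 ribosomal protein chaperones and TOP regulators 9 had a peak, with a median of 0.23, BCCIP highest at 0.79 and HEATR3, an import partner of RPL5, lowest at −0.47. Of 12 non-coding hosts of small nucleolar RNAs 8 had a peak, with a median of 0.17, among them ZFAS1 at 0.60 and SNHG16 at −0.21.

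The mitochondrial ribosome had fewer and shallower peaks. Of 77 genes 24 had a peak (31.2%), and the median over 33 peaks was 68 first-listed and 62 second-listed reads, against 136 and 131.5 for the cytosolic ribosome. Their log2 ratio of summed reads was 0.03 (−0.05 to 0.11), which lies below the 0.14 to 0.23 of the cytosolic ribosome. With reads divided by 2 the cytosolic interval widened to 0.12 to 0.25. The mitochondrial interval was not computed that way and would also widen. The intervals therefore cannot be taken as apart if both ends of a fragment were counted. In the authors' deposited table none of the mitochondrial ribosome peaks had an unadjusted p under 0.05. Translation factors were closer to the cytosolic ribosome, with 40 of 74 genes and 79 peaks. Their median was 111 first-listed and 105 second-listed reads, and their log2 ratio was 0.17 (0.14 to 0.21). At promoter peaks within 1 kb alone, the ratio of translation factors was 0.10 (0.06 to 0.15), the same as the 0.10 of all such peaks. There the cytosolic ribosome stood at 0.19 (0.14 to 0.24) and the mitochondrial ribosome at −0.01 (−0.11 to 0.09). Differences between these gene groups were not tested, since peaks of a group are not replicates of a condition.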

How the data were processed

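H4K20me1 CUT&Tag was analysed from 1 table of peaks of the whole series, with 4 libraries behind it. Cutadapt, Bowtie2, DESeq and build hg38 are named, without version or order, per the submitters' processing notes. How peaks were called, how duplicates were handled and which libraries each value pools is not given in the sources used here. Per peak, the authors deposited log2 scaled reads for each group, a log2 fold change, and an unadjusted and an adjusted p-value. Low log2 values (1.5 to 5.5) equalled the log2 of whole reads plus a constant (0 for the first-listed and −0.057 for the second-listed column) within 0.0051 in 100% of 5676 and 5557 values, so reads were recovered for each peak, with an error of up to 0.347% from rounding. Columns summed to 2791207 first-listed and 2682916 second-listed reads. Log2 ratios include the table's scaling and have exact Clopper-Pearson 95% intervals. PCR copies are not separate molecules, so intervals cover counting error only. No count model was run, since each group has 1 column.

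Peaks were joined to RefSeq genes and promoters of GRCh38.p14, the assembly that hg38 denotes, by symbol and coordinates. Any ribosomal protein gene could be named, and some genes that the rule covers are not reported here. Full values go to the 6 highest and 6 lowest ratios, the 4 genes with most reads, genes with many or only intron peaks, those with an unadjusted p under 0.05, and RPS14, RPS19, RPL5 and RPL11; other lists give their highest and lowest genes. Members, lists and alternatives were chosen with earlier results of these data known. Scripts were tested on simulated data. Python 3.11.15, pandas 2.3.3, NumPy 2.4.6, SciPy 1.17.1 and matplotlib 3.10.9 were used.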

Additional observations from a re-analysis of the deposited data

How the results depend on the processing

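Of 32 alternatives over the results on ribosomal protein peaks, 9 moved the value (by more than 1.5 times for a count, out of its 95% interval for a ratio or median), 23 moved it by less or not at all and 0 reversed it. A reversal was possible only for a ratio or median, since a count has no sign. With the same total of reads in both columns, the ribosomal protein peaks had a median log2 fold change of 0.00099 in place of 0.115 and a log2 ratio of summed reads of 0.070 in place of 0.18. That ratio was 0.13 with no scaling and 0.23 without chromosome 2 up to 90 Mb, 9 from 40 Mb and 17 from 25 Mb. In the authors' deposited table, 1 ribosomal protein peak (1.85%, against 1.13% of all peaks) had an unadjusted p under 0.01, 8 (14.8%, against 9.96%) had one under 0.1 and 0 had an adjusted p under 0.05, in place of 5 under 0.05. A change of at least 1.5-fold in size was found in 11 peaks (20.4%, against 15.5% of all peaks), in place of 1 at a log2 fold change of 1, and that peak lay below the median signal, which left 0 at or above it. With no scaling the median log2 fold change was 0.057. Promoter starts with CCGGAAG numbered 19 in place of 26, both in a shorter window and on the gene strand alone. Genes with a peak numbered 37 with peaks at or above the median signal and 64 with any peak over the gene, against 45 by name. No paired analysis was possible because the table holds 1 column per group, and leaving out a library was not possible for the same reason. Depth limits peaks such as that of RPS23, with 28 and 48 reads.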
